A study of Homo sapiens with 28 samples.

Results

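The genes described here are 10 that encode secreted factors which attract or sustain myeloid and other immune cells. They are the CXC chemokines CXCL1, CXCL2, CXCL3, CXCL5, CXCL8 and CXCL16, the CC chemokines CCL2 and CCL20, and the growth factors CSF1 and LIF. They were chosen by name, as the rows of both deposited count tables whose gene identifier maps to these symbols in GENCODE, and each of the 10 had a row among the 62703 genes of the tables. RNA-seq covered 24 libraries of 2 human CRC cell lines, in 8 groups of 3 libraries. MDST8, a line of the mesenchymal subtype CMS4, was sequenced as wild type (WT) cells and as 5 TWIST1 knockout clones made with CRISPR-Cas9, named 1.1, 2.2, 3.2, 3.5 and 3.6. The labels name 1.1 as TG1 and 2.2 as TG2 but put 3.2, 3.5 and 3.6 under the 1 name TG3, so 3 of the 5 share a label whose meaning is not stated there. Each clone grew from a single cell, whereas the WT cells carry no edit and no control clone is labelled, so clonal origin and knockout cannot be told apart within 1 clone. LoVo, a line outside CMS4, was sequenced as a group labelled TWIST1 shRNA (genotype TWIST1 knockdown, made with lentiviral shRNA) and a group labelled shRNA control (genotype wild type). The study also describes the latter as wild-type cells, so whether they carried a control shRNA is not settled here. No age or time point is given for any group. The labels do not say that the 3 libraries of a group came from separate cultures, and p-values then measure only the spread between these libraries, which may be technical.

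TWIST1, the transcription factor that was targeted, did not follow every label. In LoVo its mRNA had 73, 89 and 93 counts in the group labelled TWIST1 shRNA and 0 counts in each control library. Every LoVo direction below is that of the libraries as labelled, which the TWIST1 counts run against. In MDST8, TWIST1 mRNA stood at 45.4 ± 5.99 CPM (counts scaled to a common library size; SD, n = 3) in WT cells and between 29.1 ± 1.03 CPM in clone 2.2 and 52.9 ± 3.35 CPM in clone 3.2, an mRNA measure that does not show whether protein was made. The paper reports checking the MDST8 knockout by Sanger sequencing and Western blot. For the LoVo knockdown it reports qRT-PCR and Western blot. Total counts ran from 16567606 to 22217009 per library, and a count of 3, taken as the floor for a gene at 0, was worth 0.133 to 0.190 CPM. Mitochondrial transcripts took 2.38 to 4.37% of the counts in MDST8, 3.49 to 3.96% in LoVo labelled shRNA control and 5.47 to 10.9% in LoVo labelled TWIST1 shRNA, and their part in the LoVo results was measured only by leaving those genes out, which left all calls of the members in LoVo as they were.

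Markers of leukocytes and endothelium were at or near 0, whereas fibroblast markers were not. The 12 leukocyte markers summed to between 0.210 and 1.08 CPM in the MDST8 libraries and to at most 4.63 CPM in LoVo, and PTPRC, which encodes the pan-leukocyte antigen CD45, had no more than 3 counts in any library. The 5 endothelial markers summed to at most 1.85 CPM. Of 12 intestinal epithelial markers, 2 reached 1 CPM in each MDST8 group, with sums of 63.5 to 134 CPM, whereas all 12 did in LoVo, with sums of 9192 to 9483 CPM in the control libraries and 4786 to 5418 CPM in those labelled TWIST1 shRNA. The 7 mesenchymal markers summed to 9531 to 16854 CPM in MDST8 and to at most 224 CPM in LoVo. Of the 7 fibroblast markers, with sums of 312 to 1307 CPM in MDST8 and 5.50 to 83.8 CPM in LoVo, 3 or 4 reached 1 CPM in each MDST8 group, and COL1A1, a collagen chain, made up most of the sum (601 CPM on average in WT). In clones 1.1, 2.2, 3.2, 3.5 and 3.6, 3, 0, 1, 0 and 1 of the 4 tested fibroblast markers rose and 0, 1, 0, 1 and 3 fell, while 0, 2, 0, 1 and 1 of the 2 tested epithelial and 0, 2, 1, 1 and 0 of the 7 mesenchymal markers rose and 1 mesenchymal marker fell, in clone 3.6. In LoVo labelled TWIST1 shRNA, 10 of the 12 epithelial and 4 of the 4 tested mesenchymal markers fell, as did ITGAM, the 1 leukocyte marker tested, and of 2 fibroblast markers COL1A1 rose and PDGFRB fell. Among the mesenchymal markers below the filter there, SNAI2 went the other way, from 0.0211 CPM in the control to 2.16 CPM. ZEB2 (0 and 0.0362 CPM) and CDH2 (0.237 and 0 CPM) were near 0 in both LoVo groups. Over all genes tested, 8.05 to 15.3% rose and 6.09 to 11.7% fell in the clones, and 26.6% rose and 26.1% fell in LoVo. The part of the marker shift in the LoVo results below was not tested.

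Chemokines are small secreted proteins that bind G protein-coupled receptors on leukocytes and direct their movement along a gradient. CXCL1, CXCL2, CXCL3, CXCL5 and CXCL8 share an ELR motif ahead of their first cysteines, act through CXCR2 (CXCL8 also through CXCR1) and attract neutrophils. CCL2 attracts monocytes through CCR2, CCL20 attracts lymphocytes and dendritic cells through CCR6, and CXCL16 is made as a membrane protein that is shed by ADAM10 and ADAM17 and binds CXCR6. CSF1 keeps monocytes and macrophages alive through CSF1R, and LIF is an IL-6 family cytokine that signals through LIFR and IL6ST. In inflamed epithelium and in tumour cells, transcription of many of these genes is raised by NF-kB, and their mRNAs are short-lived because of AU-rich elements bound by ZFP36 proteins.

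The 5 ELR chemokines among the members lie on chromosome 4 of hg38, with gaps between them. They run from CXCL8 at chr4:73740519-73743716 and CXCL1 at chr4:73869393-73871308 (both plus strand) to CXCL5 at chr4:73995642-73998677, CXCL3 at chr4:74036589-74038807 and CXCL2 at chr4:74097040-74099196 (all minus strand). CXCL16 lies at chr17:4733533-4739928 (minus strand), CCL2 at chr17:34255274-34257208 (plus), CCL20 at chr2:227805739-227817564 (plus), CSF1 at chr1:109910242-109930992 (plus) and LIF at chr22:30240453-30246759 (minus), all as GENCODE genes on hg38. Promoter sequence from RefSeq (GRCh38.p14) was available for 6 members, CCL20 and the 5 ELR chemokines, and is shown for these. None was available for CXCL16, CCL2, CSF1 and LIF. The exact letters GGAATTTCC, a form of NF-kB site, were searched on both strands of the 250 bases ahead of the RefSeq start. They occurred once in each of the 5 ELR chemokine promoters and not in that of CCL20. Other forms of the site were not searched, so CCL20 is not shown to lack an NF-kB site. Among all 35116 RefSeq promoters searched, 145 (0.413%) held these letters. The motif was chosen after the data were seen, and a match is a description of the sequence, not of binding. Capitals mark these letters, and each stretch reads 5′ to 3′ in the direction of the gene. For CXCL1, CXCL2, CXCL5 and CXCL8 the stretches end ahead of the most upstream GENCODE 5′ end, for CXCL3, whose site lies behind that end, only the surroundings of the site are given, and the CCL20 stretch lies inside the GENCODE gene, ahead of its RefSeq start.
CXCL1, chr4:73869253-73869392, plus strand: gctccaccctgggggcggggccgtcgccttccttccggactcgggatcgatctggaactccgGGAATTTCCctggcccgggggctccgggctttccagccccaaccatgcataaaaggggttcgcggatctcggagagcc
CXCL2, chr4:74099197-74099335, minus strand: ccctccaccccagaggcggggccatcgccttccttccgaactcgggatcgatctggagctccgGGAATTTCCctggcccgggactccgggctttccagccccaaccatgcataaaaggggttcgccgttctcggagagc
CXCL3, chr4:74038749-74038777, minus strand: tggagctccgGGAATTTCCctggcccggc
CXCL5, chr4:73998678-73998817, minus strand: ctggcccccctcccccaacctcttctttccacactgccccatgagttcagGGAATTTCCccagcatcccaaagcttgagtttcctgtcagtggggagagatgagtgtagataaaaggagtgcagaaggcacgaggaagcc
CXCL8, chr4:73740429-73740518, plus strand: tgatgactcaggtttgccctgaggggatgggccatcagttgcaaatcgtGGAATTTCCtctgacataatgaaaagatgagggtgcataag
CCL20, chr2:227813702-227813841, plus strand: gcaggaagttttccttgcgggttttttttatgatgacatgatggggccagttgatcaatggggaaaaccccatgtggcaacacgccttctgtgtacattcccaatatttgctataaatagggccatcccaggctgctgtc

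The NF-kB letters began at -78 from the RefSeq start in CXCL1 and CXCL3, -77 in CXCL2, -90 in CXCL5 and -91 in CXCL8, each on the strand of the gene. Over the 140 bases ahead of the start, CXCL1 was identical to CXCL2 in 91.49% and to CXCL3 in 90.71% of aligned positions, and CXCL2 to CXCL3 in 87.94%, whereas CXCL1 matched CXCL5 in 50.97% and CXCL8 in 44.81%. The E-box CATCTG was in none of the 6 promoters and in 12.2% of all promoters, and the wider E-box CANNTG was in those of CXCL2, CXCL8 and CCL20 and in 61.8% of all. Letters of an AP-1 site, TGANTCA, stood in the CXCL8 promoter alone among the 6 (6.57% of all promoters), and TATAAA stood in those of CXCL8 and CCL20 (10.7% of all). Letters of a C/EBP site, TTNNGCAA, were in the CXCL2 promoter (9.05% of all). CXCL1, CXCL2 and CXCL3 are near-identical copies, and their counts are uncertain as far as fragments could fit more than 1 of them. In the opposite direction, exons of MED11 and ZMYND15 overlap those of CXCL16, LIF-AS1 and LIF-AS2 overlap LIF, and a long non-coding RNA overlaps CXCL5. Counting did not use the strand, so reads of these partners could not be told apart from those of the members.

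The 2 lines made different sets of these factors. Compared per length of exon, in reads per kilobase scaled to library size (RPKM), CCL2 was the highest member in MDST8 WT at 51.4 ± 3.92 RPKM (SD, n = 3), ahead of LIF at 45.9 ± 1.67, CXCL8 at 21 ± 2.73 and CXCL1 at 8.02 ± 1.54 RPKM. CSF1 followed at 4.41 ± 0.399, CXCL3 at 1.36 ± 0.151 and CXCL16 at 0.596 ± 0.0969 RPKM. In LoVo labelled shRNA control the order was led by CXCL1 at 209 ± 5.93 RPKM, then CXCL16 at 69.2 ± 0.622, CXCL3 at 41.2 ± 2.04, CXCL8 at 28.3 ± 1.61, CCL20 at 27.0 ± 2.59 and CXCL2 at 25.3 ± 1.31 RPKM, and CCL2 was the lowest at 1.09 ± 0.0616 RPKM. LIF there stood at 7.42 ± 0.607, CSF1 at 6.02 ± 0.675 and CXCL5 at 2.54 ± 0.361 RPKM. CCL2 and LIF were the 2 highest members in each of the 5 clones as well, from 85.2 ± 3.07 RPKM of CCL2 in clone 3.6 to 184 ± 13.5 RPKM in clone 1.1. The order of members within a group depends on the deposited exon length. For CCL2 (1935 bp) and CXCL3 (2219 bp) that length covers the whole gene, introns included, which lowers their RPKM.

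**Figure D1:**
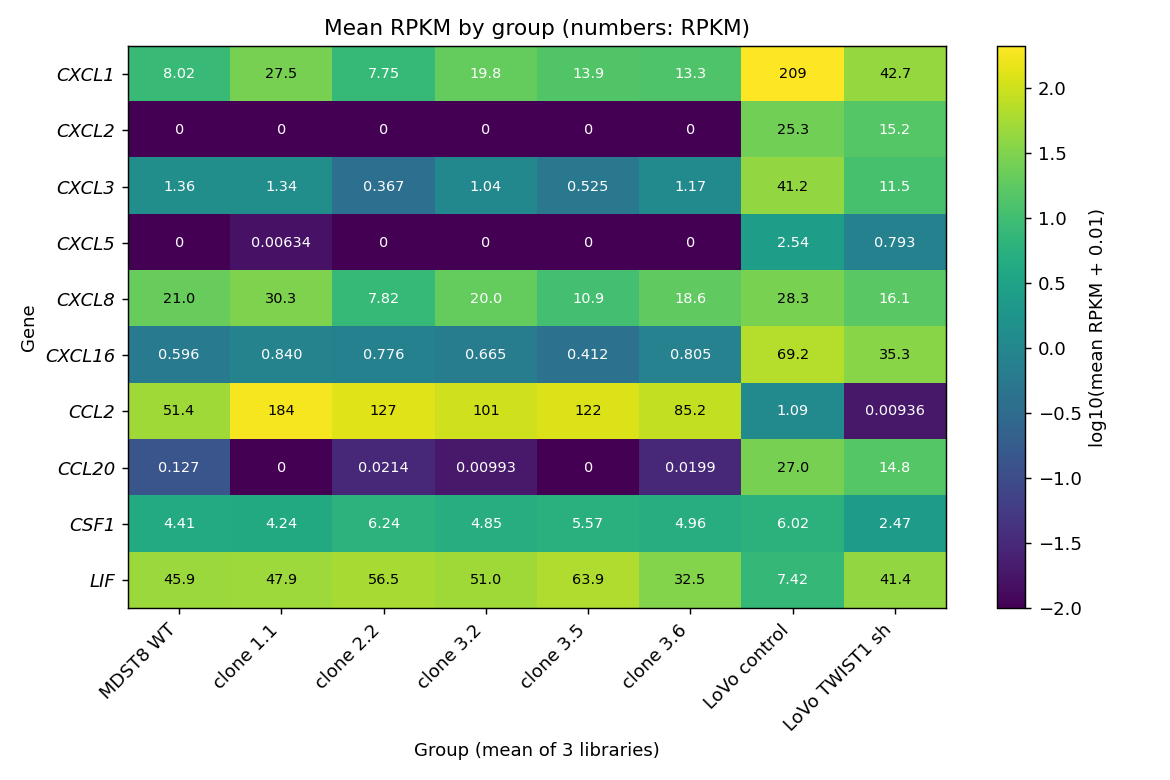
Mean level of each of the 10 genes (rows) in each of the 8 groups (columns, 3 libraries each), in RPKM, written in each cell and coloured on a log10 scale. CCL2 runs from 51.4 to 184 RPKM across the MDST8 groups and is at 1.09 and 0.00936 RPKM in the LoVo groups, while CXCL2 is at 0 in all 6 MDST8 groups.

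A filter on low counts, a geometric mean of at least 1 RPM (reads of a gene scaled to library size) over the libraries of a fit, was passed by 7 members in MDST8 (all but CXCL2, CXCL5 and CCL20), 9 in LoVo (all but CCL2) and 9 in the fit of both lines (all but CXCL5). A gene was called when its adjusted p (edgeR's quasi-likelihood test, Benjamini-Hochberg over all genes tested) was below 0.05 and its absolute log2 fold change above 0.58. Fold changes below come from these fits of counts, and CPM values are levels scaled to library size with TMM factors over all 24 libraries. In bulk libraries, fewer cells that make a factor and less of its mRNA per cell cannot be told apart.

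**Figure D2:**
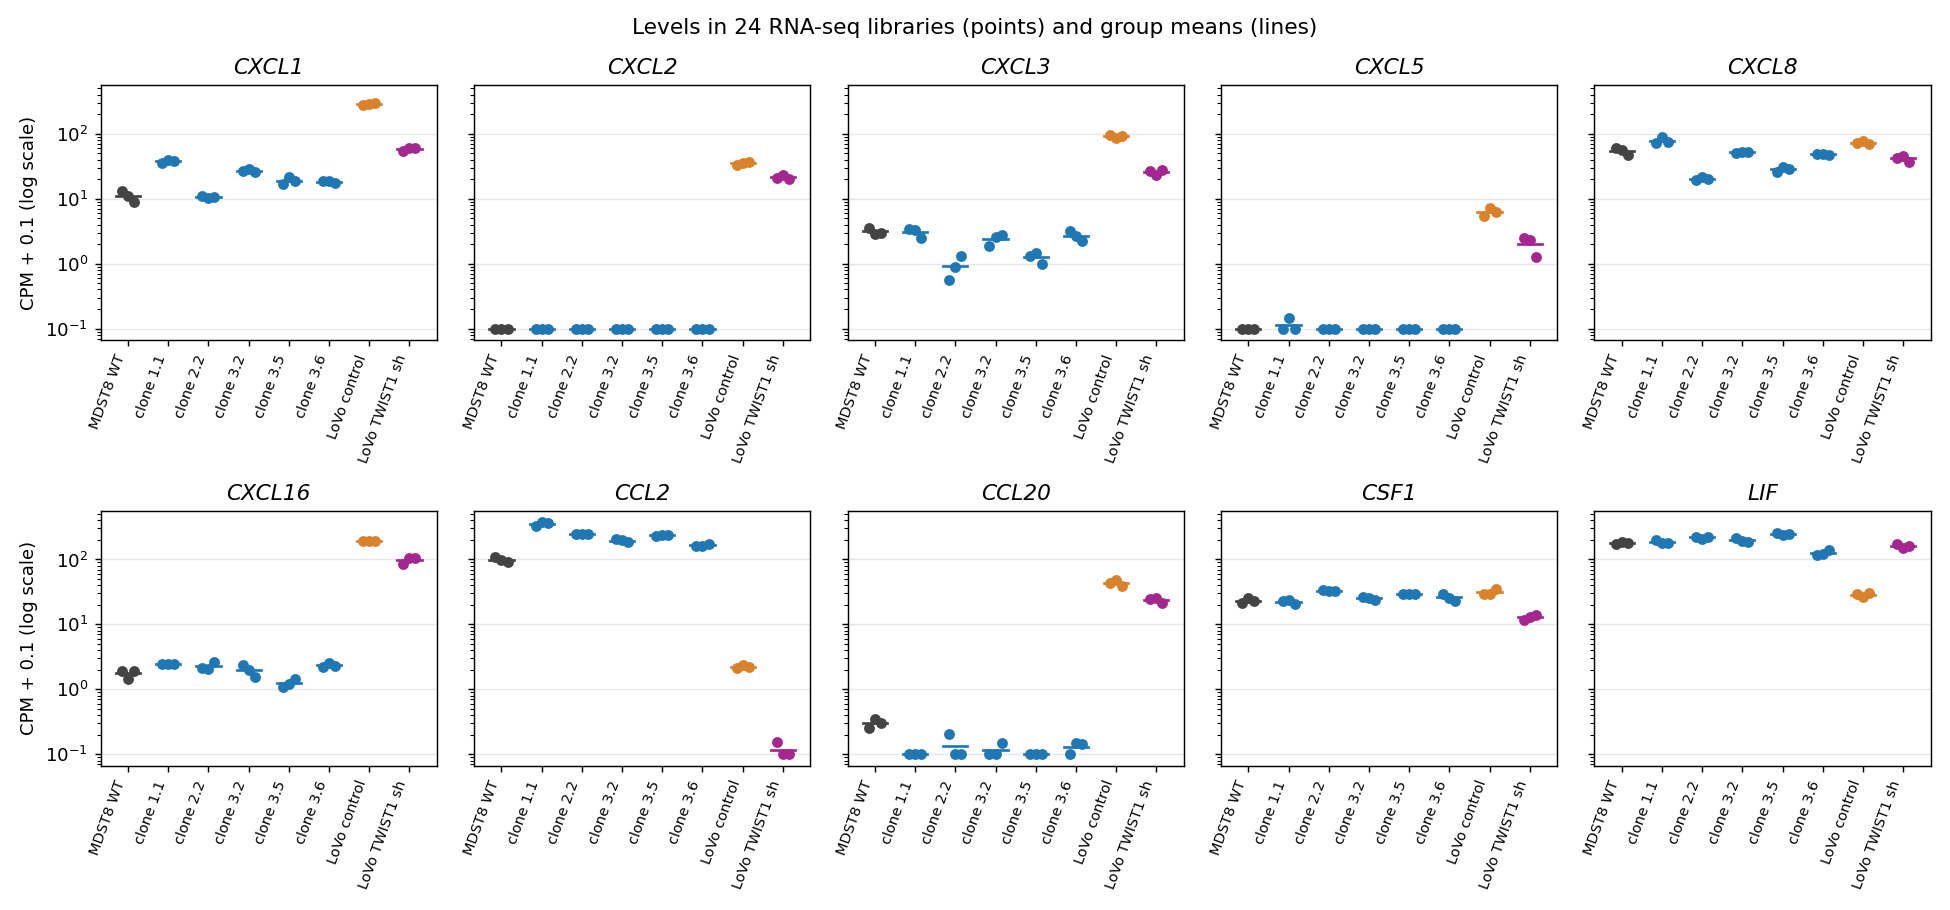
Level of each gene in the 24 libraries (points) with the group mean (line), in CPM plus 0.1 on a log axis. CCL2 lies above WT in all 15 clone libraries, and CXCL2 is at 0 counts in all 18 MDST8 libraries.

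CCL2 was the 1 member that rose in all 5 knockout clones. WT libraries A, B and C had 108, 97.6 and 92.9 CPM. Clone 1.1 had 325, 374 and 367 CPM, clone 2.2 had 250.5, 245.5 and 243 CPM, and clone 3.5 had 229.5, 234.5 and 242 CPM. Clone 3.2 had 203, 198 and 183 CPM, and clone 3.6 had 163, 159.9 and 171 CPM. All 15 clone libraries thus lay above all 3 of WT, and no 2 neighbours overlapped in the order 1.1, 2.2, 3.5, 3.2, 3.6, WT. The log2 fold change was 1.83 in clone 1.1 (SE 0.05, adjusted p = 3.73e-26), 1.30 in clone 2.2 (SE 0.05, adjusted p = 1.53e-21) and 1.23 in clone 3.5 (SE 0.05, adjusted p = 5.37e-21). It was 0.96 in clone 3.2 (SE 0.05, adjusted p = 4.05e-18) and 0.73 in clone 3.6 (SE 0.05, adjusted p = 4.48e-15), where 0.73 equals a 1.66-fold higher level. The exact two-sided permutation test of log2(CPM + 0.5), 3 libraries against 3, gave p = 0.10 in each clone, the smallest it can give. The summed fibroblast markers, mostly COL1A1, ran from 617 to 628 CPM in WT, 1145 to 1307 in clone 1.1 and 584 to 623 in clone 2.2. They ran from 822 to 893 CPM in clone 3.5, 790.0 to 859 in clone 3.2 and 312 to 339 in clone 3.6. Any relation of these sums to CCL2 was not tested. Of all 13706 genes tested, 434 (3.17%) were called higher in all 5 clones, and the 5 comparisons share the same 3 WT libraries.

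In LoVo, CCL2 was a minor transcript and fell below the filter. The 3 control libraries held 32, 43 and 35 counts of it, against 1, 0 and 0 in the group labelled TWIST1 shRNA. Summed over 3 libraries and scaled to their sizes, the control level was 111-fold higher, with a 95% exact interval of 19.5 to 4417 that covers counting error only. The exact permutation test gave p = 0.10, again its smallest value, and edgeR called CCL2 lower where the filter was dropped or replaced by filterByExpr. MDST8 WT was 46.6-fold above LoVo labelled shRNA control (log2 fold change 5.54, SE 0.10, adjusted p = 3.07e-32). In that fit of both lines CCL2 passed the filter only through MDST8, where it is high, so the adjusted p adds no support.

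CCL20, the other CC chemokine, was all but absent from MDST8. WT libraries had 3, 5 and 4 counts, and each of the 15 clone libraries had 0, 1 or 2 counts, a difference at the floor of these libraries (exact permutation p = 0.10 for each clone). LoVo labelled shRNA control had 42.6, 47.5 and 39.3 CPM, and LoVo labelled TWIST1 shRNA had 24.3, 25.8 and 20.9 CPM. These 2 groups did not overlap, and CCL20 fell by 0.85 on the log2 scale (SE 0.10, adjusted p = 4.17e-07).

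CXCL1 rose in 4 of the 5 clones. WT had 13.1, 10.8 and 8.87 CPM in libraries A, B and C. Clone 1.1 had 35.9, 39.1 and 37.5 CPM, clone 3.2 had 27.0, 28.2 and 25.6 CPM, clone 3.5 had 16.6, 21.5 and 18.6 CPM and clone 3.6 had 18.8, 18.4 and 17.3 CPM. Clone 2.2 had 10.8, 10.3 and 10.6 CPM, within the range of WT. The log2 fold change was 1.78 in clone 1.1 (SE 0.09, adjusted p = 4.16e-18), 1.30 in clone 3.2 (SE 0.09, adjusted p = 5.40e-14), 0.79 in clone 3.5 (SE 0.10, adjusted p = 2.33e-08) and 0.73 in clone 3.6 (SE 0.10, adjusted p = 5.04e-08). In clone 2.2 it was -0.06 (SE 0.11, adjusted p = 0.669). Neighbours in the order of means overlapped for clones 3.5 and 3.6 and for WT and clone 2.2, and the others lay apart.

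In LoVo, CXCL1 went the other way. The control libraries held 276, 284 and 292 CPM of it, against 54.2, 60.8 and 59.4 CPM in those labelled TWIST1 shRNA. This is a log2 fold change of -2.27 (SE 0.06, adjusted p = 6.09e-15), a level 4.84-fold lower. Even so, the lower LoVo group lay above every MDST8 library. The difference between the LoVo effect and the mean effect in the 5 clones was -3.21 on the log2 scale (SE 0.10, adjusted p = 2.70e-24).

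CXCL8, or interleukin-8, fell in 2 clones and in LoVo labelled TWIST1 shRNA, and WT was not called against either LoVo group. WT had 60.5, 56.3 and 46.7 CPM. Clone 2.2 had 19.4, 21.5 and 19.9 CPM and clone 3.5 had 25.7, 30.3 and 28.4 CPM, both below all WT libraries, whereas clone 1.1 had 72.0, 87.5 and 75.6 CPM, above them. Clones 3.2 and 3.6 had 51.2 to 52.5 CPM and 47.2 to 48.9 CPM, within the range of WT. CXCL8 fell by 1.44 on the log2 scale in clone 2.2 (SE 0.08, adjusted p = 5.91e-17) and by 0.96 in clone 3.5 (SE 0.08, adjusted p = 5.81e-13). In clone 1.1 the log2 fold change was 0.52 (SE 0.07, adjusted p = 4.34e-08), short of the threshold of 0.58, and without WT library A it was 0.61 and called. LoVo labelled shRNA control had 71.2, 77.9 and 70.3 CPM and LoVo labelled TWIST1 shRNA had 42.5, 45.7 and 36.6 CPM, without overlap, and CXCL8 fell by 0.80 (SE 0.08, adjusted p = 1.16e-07).

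CXCL3 fell in the same 2 clones as CXCL8. WT had 3.41, 2.81 and 2.86 CPM, against 0.461, 0.774 and 1.21 CPM in clone 2.2 and 1.23, 1.37 and 0.903 CPM in clone 3.5. These are few reads, 56 to 65 counts per WT library and 9 to 26 in these clones. The log2 fold change was -1.90 in clone 2.2 (SE 0.27, adjusted p = 3.17e-07) and -1.39 in clone 3.5 (SE 0.26, adjusted p = 1.98e-05), and between -0.39 and -0.03 in the other 3 clones, none called. LoVo labelled shRNA control had 94.3, 86.2 and 93.8 CPM, against 26.1, 23.2 and 27.1 CPM in the libraries labelled TWIST1 shRNA. CXCL3 fell there by 1.82 on the log2 scale (SE 0.08, adjusted p = 1.35e-12).

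CXCL2 and CXCL5 were LoVo transcripts. CXCL2 had 0 counts in all 18 MDST8 libraries, although its near copy CXCL1 had 177 to 844 counts in them. In LoVo CXCL2 stood at 33.4, 35.9 and 37.0 CPM in the control libraries and at 20.6, 23.3 and 19.7 CPM in those labelled TWIST1 shRNA, and fell by 0.72 (SE 0.09, adjusted p = 1.11e-06). Against a floor of 3 counts per WT library, CXCL2 was at least 232-fold higher in LoVo labelled shRNA control and at least 139-fold higher in LoVo labelled TWIST1 shRNA than in MDST8 WT. CXCL5 had 1 count in 1 library of clone 1.1 and 0 in the other MDST8 libraries. It had 5.39, 7.13 and 6.04 CPM in LoVo labelled shRNA control and 2.39, 2.25 and 1.16 CPM in LoVo labelled TWIST1 shRNA, and fell by 1.66 (SE 0.26, adjusted p = 1.68e-05). The control level was at least 40.5-fold above MDST8 WT by the same floor.

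CXCL16, the transmembrane chemokine, was not called in any clone. It had 1.84, 1.35 and 1.80 CPM in WT and 0.992 to 2.52 CPM in the clones. Log2 fold changes ran from -0.53 in clone 3.5 (SE 0.25, adjusted p = 0.0648) to 0.49 in clone 1.1 (SE 0.22, adjusted p = 0.0539), on 17 to 50 counts per library. In clone 3.5 it passed both thresholds without WT library B, at -0.65. LoVo labelled shRNA control held 191, 194 and 195 CPM of CXCL16, 116-fold above MDST8 WT (log2 fold change of WT against it -6.85, SE 0.11, adjusted p = 8.02e-34). The libraries labelled TWIST1 shRNA held 84.6, 105 and 107 CPM, and CXCL16 fell by 0.95 (SE 0.08, adjusted p = 5.10e-09).

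LIF was the member that rose in LoVo labelled TWIST1 shRNA. The control libraries had 29.7, 26.0 and 30.4 CPM and the libraries labelled TWIST1 shRNA had 173, 149 and 159 CPM, a log2 fold change of 2.50 (SE 0.08, adjusted p = 3.41e-14) and a 5.66-fold higher level. This brought LIF close to MDST8 WT, which had 170.6, 183 and 180.0 CPM. WT against these libraries gave a log2 fold change of 0.15 (SE 0.06, adjusted p = 0.0313), below the threshold of size, with overlapping values. WT against the LoVo control gave 2.63 (SE 0.08, adjusted p = 3.96e-26).

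LIF was not called in any clone against WT, although the clones differed from each other (below). Clone 3.5 was highest at 258, 237 and 248 CPM (log2 fold change 0.47, SE 0.05, adjusted p = 4.85e-09). Clone 3.6 was lowest at 118, 120.0 and 139.9 CPM (log2 fold change -0.50, SE 0.06, adjusted p = 1.12e-09, and -0.58 and called without its library C). Both differences have the opposite sign and lie under the threshold of size.

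CSF1 was the most even member. It ran from 20.4 to 33.2 CPM over the 18 MDST8 libraries, with WT at 21.4, 25.4 and 22.5 CPM and clone 2.2 highest at 33.2, 32.5 and 32.3 CPM (log2 fold change 0.49, SE 0.08, adjusted p = 1.66e-06, not called). LoVo labelled shRNA control, at 29.4, 29.6 and 35.6 CPM, overlapped clones 2.2, 3.5 and 3.6. LoVo labelled TWIST1 shRNA was the lowest of the 8 groups at 11.8, 13 and 14.1 CPM, and CSF1 fell by 1.27 on the log2 scale (SE 0.11, adjusted p = 1.07e-08). MDST8 WT lay 1.78-fold above that group (log2 fold change 0.84, SE 0.10, adjusted p = 1.65e-09).

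**Figure D3:**
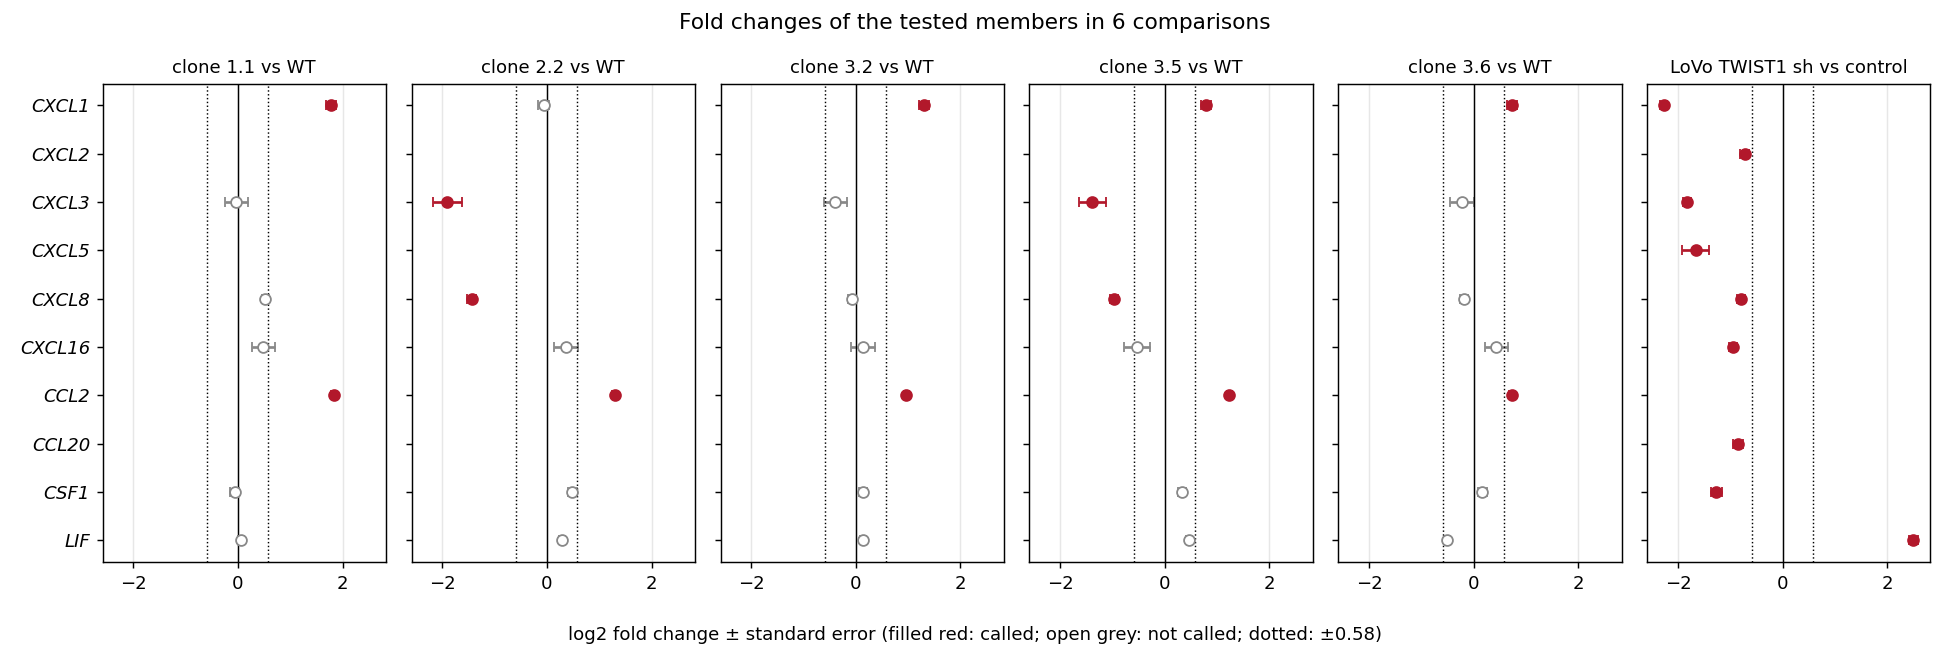
Log2 fold change with its standard error for each tested member in the 5 clones against WT and in LoVo labelled TWIST1 shRNA against labelled shRNA control; filled points were called and dotted lines mark ±0.58. CCL2 is right of the line in all 5 clones, and in LoVo 8 of the 9 tested members lie left of it and LIF right.

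Counted over the list, 2 of the 7 tested members were called in clone 1.1 (CXCL1 and CCL2; 19.5% of all genes tested were called), 3 in clone 2.2 (CCL2, CXCL3 and CXCL8; 14.7%) and 2 in clone 3.2 (CXCL1 and CCL2; 17%). In clone 3.5, 4 were called (CXCL1, CCL2, CXCL3 and CXCL8; 18.5%), and in clone 3.6, 2 (CXCL1 and CCL2; 27.0%). Across the clones, 4 of 7 were called at least once, where 39.6% of all genes were. The median log2 fold change of the 7 ran from 0.14 in clone 3.2 to 0.49 in clone 1.1, where that of all genes tested lay between -0.01 and 0.00. An F test among the 5 clones, with no threshold of size, called all 7, with adjusted p from 3.57e-21 for CXCL8 to 0.00182 for CXCL16, and it called 81.0% of all genes.

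In LoVo all 9 tested members were called, where 52.7% of all 14270 genes tested were. Of these 8 fell (26.1% of all genes fell) and 1, LIF, rose (26.6% rose). The median of the 9 was -0.95, against 0.01 over all genes. MDST8 WT against LoVo labelled shRNA control called 7 of 9 tested members (64.6% of all genes), with CCL2 and LIF higher and CXCL1, CXCL2, CXCL3, CXCL16 and CCL20 lower in MDST8, while CSF1 and CXCL8, at log2 fold changes of -0.45 and -0.43, were not called. Against LoVo labelled TWIST1 shRNA it also called 7 of 9 (59.6% of all genes), CSF1 now among them and LIF no longer. In both comparisons CXCL2 and CCL20 passed the filter only through LoVo, and CCL2 only through MDST8, where each is high. Their calls therefore add no support to these counts.

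The effect in LoVo, as labelled, was set against the mean effect in the 5 clones by adjusted p alone, with no threshold of size, and this called 8 of the 9 members tested in the fit of both lines, where 73.6% of all genes were called. The test takes its error from the spread between libraries and not between clones, which differed from each other: the LoVo values of CXCL8 (-0.80) and CXCL3 (-1.82) lay within the range of the 5 clones (-1.44 to 0.52 and -1.90 to -0.03). LIF was higher by 2.39 on the log2 scale (SE 0.09, adjusted p = 4.61e-22), and CXCL16, CXCL3 and CXCL8 were lower, by -1.16, -1.06 and -0.40. CSF1 differed by -1.50 (SE 0.12, adjusted p = 2.19e-13). The value for CCL2, -7.60 (SE 0.49), rests on 1 count in LoVo labelled TWIST1 shRNA, and that for CCL20, 2.76 (SE 0.67), on 12 counts in WT and 0 to 2 in each clone library. CXCL2, at 0 in MDST8, gave no usable estimate.

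Genes whose level followed a member most closely over the 18 MDST8 libraries were named by Pearson's r of log2(CPM + 0.5). The libraries share 6 groups of 3, so the values describe patterns over groups and carry no p. For CXCL1 they were PKP3 (r = 0.963), a desmosome component, CD70 (0.962), a ligand of the TNF family, and RAI1 (0.950). For CXCL8 they were NAP1L5 (0.950), NFKB1 (0.949), which encodes the p105 and p50 subunits of NF-kB, and TMEM184C (0.940). CXCL3 came closest to CBX1 (0.939), NDE1 (0.928) and TMEM192 (0.925), and CCL2 to CYTH2 (0.945), PPP2R2B (0.943) and TUBB2A (0.943). LIF came closest to CRYBG3 (0.958), FLNC (0.952) and ARHGEF1 (0.952), CSF1 to BAIAP2L1 (0.873), PACS1 (0.870) and PCDHB13 (0.867), and CXCL16 to DGKI (0.891), NR1D2 (0.869) and ANKRD13C (0.839).

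Receptors for these factors were mostly lacking. Of the 10 receptor genes listed, CXCR1, CXCR2, CXCR6, CCR2, CCR6, CSF1R, LIFR, IL6ST, ACKR1 and ACKR2, only LIFR and IL6ST passed the filter in either line. CCR6 had 0 counts in all 24 libraries, CCR2 no more than 1, CXCR1 no more than 3 and CXCR2 no more than 16. CXCR6, the receptor of CXCL16, had 2 to 29 counts per library, with group means of 0.713 to 1.17 CPM in MDST8, while ACKR2 had at most 24 and CSF1R at most 19 counts. LIFR, the ligand-binding receptor of LIF, had 0 counts in the 3 LoVo libraries labelled shRNA control and 415 to 516 in those labelled TWIST1 shRNA, which is at least 152-fold higher against a floor of 3 counts per library. Both subunits rose in clones 1.1, 3.2 and 3.6. LIFR had log2 fold changes of 0.63, 0.69 and 1.00 there (SE 0.07 each) and IL6ST, the shared signalling subunit gp130, 0.65, 0.67 and 0.74 (SE 0.04 each), and neither was called in clones 2.2 and 3.5. IL6ST was not called in LoVo (-0.26, SE 0.07).

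Other chemokines were scarce. Of 28 further chemokine genes, CCL28, an epithelial chemokine, passed the filter in MDST8, at 8.29 to 15.3 CPM in the group means, and was not called in any clone (log2 fold change 0.53 in clone 2.2, its largest), and none passed in LoVo. Of 21 other cytokines and growth factors, 10 passed in MDST8 and 14 in LoVo. In clones 1.1 and 3.2, 3 of the 10 rose and 3 and 4 fell, in clone 2.2, 3 rose and 0 fell, in clone 3.5, 3 rose and 1 fell, and in clone 3.6, 2 rose and 1 fell. In LoVo 6 of 14 rose and 5 fell, with a median of 0.35. Of all genes tested, 8.05 to 15.3% rose and 6.09 to 11.7% fell in the clones, and 26.6% rose and 26.1% fell in LoVo. The largest changes were those of CTF1, an IL-6 family cytokine, at 6.40 (SE 0.49, adjusted p = 3.19e-09) from 4 counts in 1 control library and 0 in the other 2, IL33, an alarmin, at -5.79 (SE 0.11, adjusted p = 6.38e-17), and CSF2, which encodes GM-CSF, at -4.80 (SE 0.44, adjusted p = 3.33e-08), all in LoVo. CSF2 had 52 to 65 counts in the control libraries and 1 to 4 in those labelled TWIST1 shRNA. CTF1 and CSF2 passed the filter in LoVo only through the group where each is high. Their calls therefore add no support to these counts.

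Interleukin-1 genes, the 2 of this list that rose in all 5 clones, were named after their values were seen. Among all 13706 genes tested, 434 (3.17%) rose in all 5 clones. IL1B stood at 19.6 ± 1.33 CPM in WT and between 33.6 ± 3.87 CPM in clone 3.6 and 44.1 ± 6.30 CPM in clone 1.1 (SD, n = 3), with log2 fold changes of 0.77 to 1.17. IL1A stood at 2.61 ± 0.359 CPM in WT and rose by 0.62 to 1.16. In LoVo labelled TWIST1 shRNA IL1B fell by 1.83 (SE 0.29, adjusted p = 1.90e-05), from 3.12 ± 0.538 to 0.863 ± 0.0101 CPM.

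NF-kB and AP-1 regulators, 25 genes of subunits, inhibitors and feedback targets, all passed the filter. In clone 1.1, 8 rose and 1 fell (12 and 7.49% of all genes tested did), in clone 2.2, 6 and 1 (8.05 and 6.64%), in clone 3.2, 6 and 2 (10.9 and 6.09%), in clone 3.5, 2 and 1 (11.2 and 7.25%) and in clone 3.6, 9 and 3 (15.3 and 11.7%). Of all calls, 64.1% in clone 3.2, 56.7% in clone 3.6 and 60.8% in clone 3.5 were higher, and without library scaling 74.3, 71.0 and 51.3%. The median log2 fold change of the 25 was 0.18 to 0.32. TRAF1, an adaptor that NF-kB induces, rose in all 5 clones, from 0.90 in clone 3.5 (SE 0.26, adjusted p = 0.00356) to 2.81 in clone 3.6 (SE 0.21, adjusted p = 7.83e-14), though from 0.814 CPM in WT. TNFAIP3, which encodes the NF-kB inhibitor A20 and was named after its values were seen as the other gene that rose in all 5, went from 22.4 ± 2.43 CPM in WT to 39.6 ± 1.98 CPM in clone 2.2 and 65.4 ± 3.74 CPM in clone 3.2. Over all 13706 genes tested, 434 (3.17%) rose in all 5 clones. NFKBIA, which encodes the inhibitor IkBa, rose in clones 1.1, 3.2 and 3.6 (1.08, 0.95 and 0.61), and BIRC3, an apoptosis inhibitor, in clones 1.1, 2.2, 3.2 and 3.6 (1.67, 0.67, 1.41 and 0.79). The genes that fell were also named after their values were seen. JUND fell in clones 3.2, 3.5 and 3.6 (-0.69, -0.76 and -0.68) and FOSL2 in clones 3.2 and 3.6 (-0.98 and -1.60). CEBPD fell in clone 1.1 (-0.78), NFKB1 in clone 2.2 (-0.61) and NFKBIB in clone 3.6 (-0.75).

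In LoVo, 9 of these 25 rose and 11 fell (26.6 and 26.1% of all genes did), with a median of -0.22. NFKBIA fell by 2.17 (SE 0.07, adjusted p = 3.41e-14), BIRC3 by 1.81 (SE 0.11, adjusted p = 3.16e-10) and TNFAIP3 had a log2 fold change of -1.69 (SE 0.07, adjusted p = 2.05e-12). FOS and FOSL1, which encode AP-1 subunits, rose by 3.76 (SE 0.09, adjusted p = 1.07e-15) and 2.25 (SE 0.07, adjusted p = 2.15e-14). TRAF1, at -0.27 (SE 0.26, adjusted p = 0.350), was not called.

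**Figure D4:**
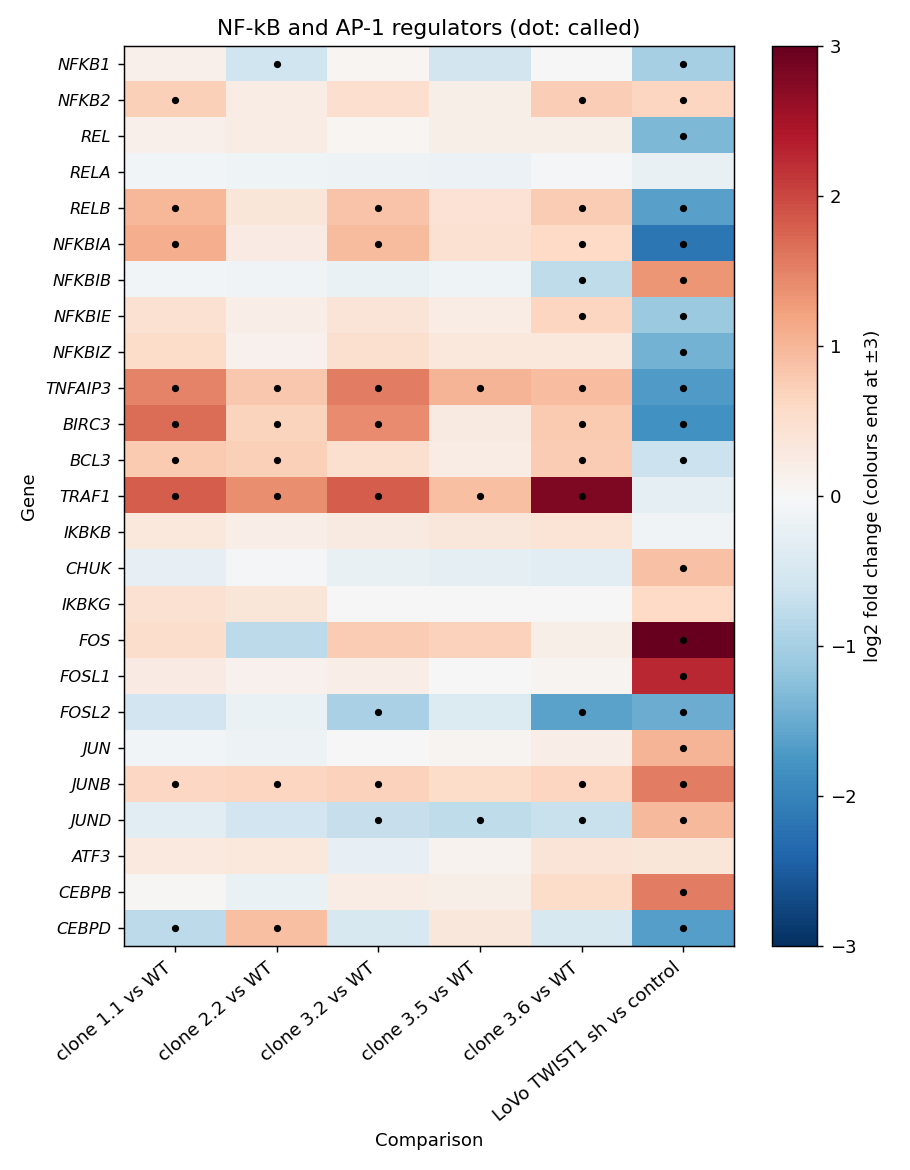
Log2 fold change of 25 NF-kB and AP-1 regulators (rows) in the 5 clones against WT and in LoVo labelled TWIST1 shRNA against labelled shRNA control (columns), with a dot where the gene was called. TNFAIP3 and TRAF1 are dotted and red in all 5 clones, and NFKBIA, BIRC3 and TNFAIP3 are blue in LoVo.

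Of 9 genes for the decay of short-lived mRNAs and for shedding, all passed. ZFP36, whose product binds AU-rich elements, rose in clones 1.1, 2.2 and 3.5 (0.60, 1.03 and 1.21) and in LoVo (2.35, SE 0.06, adjusted p = 5.47e-15). ZFP36L2, of the same family, rose in clone 2.2 (0.66) and fell by 2.33 in LoVo (SE 0.09, adjusted p = 3.16e-13). ADAM17, a protease that sheds CXCL16, rose in LoVo (1.25, SE 0.06, adjusted p = 9.63e-12) and was not called in any clone. Over the list, 2, 2, 1, 2 and 0 genes rose and 0, 1, 0, 1 and 1 fell in clones 1.1, 2.2, 3.2, 3.5 and 3.6, and 4 rose and 2 fell in LoVo. Among all genes tested, 8.05 to 15.3% rose and 6.09 to 11.7% fell in the clones, and 26.6% rose and 26.1% fell in LoVo.

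TWIST1 ChIP-seq gave 1 peak list per line, from 1 library each of cells labelled wild type, so peaks have no replicate. In MDST8, 6 of the 10 members had a peak reaching into a window from 3000 bp ahead of the 5′ end to 3000 bp past it, namely CCL2, CXCL2, CXCL3, CXCL8, CXCL16 and LIF, and 63.1% of all annotated genes had one. In LoVo 5 members did, CXCL1, CXCL3, CXCL5, CCL20 and CSF1, where 55.7% of all genes had one. CXCL3 was the member with a peak in both lists. Its LoVo peak, chr4:74036929-74037426, lies inside the gene with its summit 1558 bp past the 5′ end, a fold enrichment of 3.40 and a MACS2 p of 8.48e-05, the smallest of the 15 member peaks, and q = 0.426. Its MDST8 peak, chr4:74035606-74035911, lies behind the gene with its summit 3061 bp past the 5′ end, a fold enrichment of 2.74 and a MACS2 p of 0.00141.

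Near CCL2, the 2 MDST8 peaks, chr17:34253579-34254043 ahead of the gene and chr17:34257375-34257621 behind it, had fold enrichments of 1.75 and 1.86 and MACS2 p of 0.0374 and 0.0258. LIF had 2 MDST8 peaks inside the gene, at chr22:30244074-30245090 and chr22:30245353-30245605, with fold enrichments of 2.54 and 2.48. CXCL1 had its peak in LoVo, chr4:73869687-73870061, with a summit 554 bp past the 5′ end and a MACS2 p of 0.00119. The peak with its summit closest to a 5′ end, at -26 bp, was that of CXCL16 in MDST8, chr17:4739774-4740008, with a fold enrichment of 1.88. Every member peak had a q of 0.426 or more, and no member kept a peak at a q of at most 0.05, where 0.437% of all genes did in MDST8 and 0.361% in LoVo. The GENCODE 5′ end of CCL20 at 227805739 lies ahead of the RefSeq start that the promoter sequence above ends at, so its peaks are near the former.

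**Figure D5:**
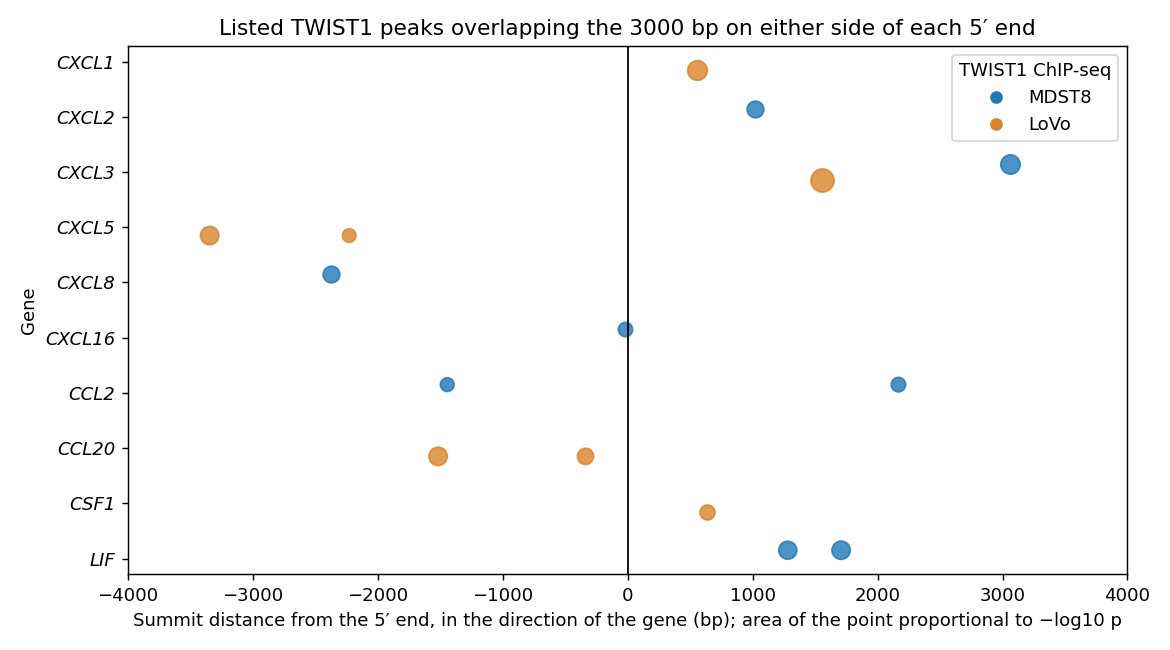
Distance of each listed TWIST1 peak summit from the 5′ end of the gene, in bp along the gene, for peaks overlapping the 3000 bp on either side, with area proportional to -log10 p. The 15 summits run from -3347 bp at CXCL5 to 3061 bp at CXCL3, and CXCL3 is the gene with points of both lines.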

How the data were processed

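RNA-seq (oligo-dT, dUTP libraries) and TWIST1 ChIP-seq were read as deposited. The authors trimmed reads with Trim Galore 0.6.6, aligned them to hg38 with HISAT2 2.1.0 and deposited counts of fragments per GENCODE 43 gene from featureCounts 2.0.0, unnormalized and, per the file headers, without strand or multi-mapped fragments, beside another deposited value, the exon length in bp. ChIP-seq peaks came from Bowtie2 2.4.5 and MACS2 2.2.7.1; the authors deposited an integer score, fold enrichment (a ratio), p-value and q-value (both as -log10) and another value, the summit offset in bp, of peaks at p below 0.05.

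Counts were grouped by the labels, and no column was left unmatched. Genes with a geometric mean of RPM + 1, minus 1, of at least 1 were fitted in edgeR 4.0.16 (TMM, quasi-likelihood test), as 18 MDST8, 6 LoVo or all 24 libraries. SE is the absolute log2 fold change over the root of F. Single levels were compared by exact two-sided permutation of log2(CPM + 0.5), where 3 against 3 cannot go below p = 0.10. Symbols of 62639 of 62703 identifiers, and gene positions, came from GENCODE annotation of the same build. Tests were checked on simulated data. Intervals and floors cover counting error only.

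Named genes were the 10 members, TWIST1, the 3 genes per list (5 for chemokines and NF-kB) with the largest called change, and the 3 most alike per member. Members, lists and tests were chosen with earlier results of these data known. Alternatives used DESeq2 1.42.0, limma 3.58.1, other scalings and filters, a replicate block, single libraries left out, and other peak windows and thresholds.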

Additional observations from a re-analysis of the deposited data

Results flagged for a closer look

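For 8 members a contrast of the LoVo effect, as labelled, with the mean effect in the 5 MDST8 clones passed an adjusted p of 0.05, with no threshold of size, in the fit of all 24 libraries (edgeR's quasi-likelihood test). In log2 units the differences were 2.39 for LIF, 2.76 for CCL20, -0.40 for CXCL8, -1.06 for CXCL3, -1.16 for CXCL16, -1.50 for CSF1, -3.21 for CXCL1 and -7.60 for CCL2, with adjusted p of at most 0.000794. The error is that between libraries, not between clones, and the LoVo effects of CXCL8 (-0.80) and CXCL3 (-1.82) lay within the range of the single clones. The value for CCL20 rests on 12 counts in WT, and that for CCL2 on 1 count in LoVo labelled TWIST1 shRNA. Line and kind of perturbation cannot be told apart, since MDST8 was edited and LoVo received shRNA, and 73.6% of all genes passed the same test. Groups of 3 are too small for a test of single libraries that stand apart.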

How the results depend on the processing

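Under the alternatives tried, every member called in a clone against WT or in LoVo kept its direction and its call wherever it was tested. A geometric mean without the offset left 6 members tested between the lines and 4 called in each, fewer because fewer were tested. Fitted without library scaling, the median of all genes moved to 0.26 for MDST8 WT against the LoVo control, 0.20 against the other LoVo group and 0.13 in clone 3.6, and upper-quartile factors moved it to 0.10 in LoVo and 0.12 for WT against the LoVo control. That unscaled fit called CXCL16 in clone 3.5 (-0.58) and the difference between the LoVo and clone effects of CXCL2 (-0.73).

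Promoter peaks depended on the window and threshold. Within 1000 bp, 2 members had one in MDST8 and 3 in LoVo (37.1 and 28.4% of all genes). At p of at most 0.001 there were 0 and 1 (17.9 and 16% of all genes), and at q of at most 0.05, 0 and 0.

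Leaving out single libraries turned the sign of 5 small differences that were not called, in 7 fits. Over these fits the log2 fold change ran from -0.12 to 0.10 for CXCL3, -0.11 to 0.0235 for CSF1 and -0.0057 to 0.0917 for LIF in clone 1.1, from -0.18 to 0.10 for CXCL1 in clone 2.2 and from -0.17 to 0.013 for CXCL8 in clone 3.2. Same-lettered libraries did not deviate together (r of -0.15 to 0.12, over 0.1 in 3 of 45 pairs), and with the replicate block 2, 3, 2, 4 and 2 members were called in clones 1.1, 2.2, 3.2, 3.5 and 3.6, as without it. LoVo groups share no replicate numbers. A pseudocount of 1 CPM changed no exact p of a member. Depth limits CXCL3 and CXCL16 in MDST8, and CXCL2, CXCL5 and CCL20 there were not measurable beyond the floor.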
